A study of Mus musculus with 2 samples.

Results

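The genes described here encode pre-mRNA splicing factors and heterogeneous nuclear ribonucleoproteins (hnRNPs), followed in mouse CD4 T cells cultured toward 2 kinds of Th17 cell, the helper T cells that make IL-17. They were taken by gene symbol: every named gene whose symbol starts with Srsf and a digit, Hnrnp, Sf3a or Sf3b and a digit, Snrp, or U2af. This gave 55 of 22036 named genes, made up of 12 Snrp genes, 3 U2AF genes, 9 SF3A and SF3B genes, 11 SR genes (Srsf) and 20 hnRNP genes. The rule used no measured value. It leaves out spliceosome genes with other symbol roots, such as Snrnp70 and the Prpf genes, which are given below as a separate list.

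The culture labelled pTh17 (pathogenic) was given activin A at 20 ng/mL, a ligand of the TGF-β family, together with 20 ng/mL of IL-6. In the culture labelled npTh17 (non-pathogenic), TGFβ1 at 2 ng/mL stood in place of activin A beside the same 20 ng/mL of IL-6. Everything else was common to both: wild-type mice, CD4 T cells of spleen and lymph node, blocking antibodies to IFNγ and IL-4, and 24 h on plates that carried anti-CD3 (10 μg/mL) and anti-CD28 (5 μg/mL). Each culture gave 1 poly(A) RNA library, with 30877656 counts on named genes for pTh17 and 33470161 for npTh17, and the number of mice behind each is not given in the labels. No ratio has a replicate check, no p-value was computed, and every ratio compares these 2 libraries only. As the pTh17 library is the smaller one, a gene with equal counts in both has a ratio above 1. Ratios are of CPM (counts as a share of the scaled library), pTh17 over npTh17, and the ranges beside them are 95% counting intervals, which cover counting error alone. FPKM (fragments relative to transcript length and library total) are the authors' values and serve to compare levels between genes. Because the RNA came from bulk cultures, fewer cells of a type and less RNA per cell cannot be told apart.

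Splicing is carried out by small nuclear ribonucleoproteins (snRNPs), each built on a small nuclear RNA. The U1 particle reads the start of an intron, U2AF proteins read its 3′ end, and the U2 particle with its SF3A and SF3B proteins binds the branch point. A ring of Sm proteins is common to the U1, U2, U4 and U5 particles. SR proteins bind exons and mostly favour their inclusion, while many hnRNPs bind introns or exons and often favour skipping. In T cells this machinery is known for activation-driven switches such as that of CD45, where hnRNP LL (Hnrnpll) and hnRNP L repress variable exons.

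In both libraries these genes were among the most abundant messages. They took 2.39% of all counts in the pTh17 library and 2.24% in the npTh17 library, and 30 of them stood at 100 FPKM or more in pTh17 and 29 in npTh17. Of the 55 genes, 54 averaged 1 CPM or more and were kept. The kept genes had a median of 113 FPKM in the pTh17 library and 108 FPKM in the npTh17 library, where all 10597 kept genes had a median of 11.3 FPKM in each. Hnrnpa2b1, an hnRNP that packages nascent transcripts, was the highest by FPKM, with 1013 in the pTh17 library and 908 in the npTh17 library, at rank 56 of all named genes in pTh17 and rank 60 in npTh17. Hnrnpa1, a repressor of exon inclusion, came next with 763 FPKM in pTh17 and 618 FPKM in npTh17. The gene not kept was Snrpn, which encodes the SmN form of the Sm protein B and is best known from neurons, with 0 counts in the pTh17 library and 11 in the npTh17 library. It was at least 3.39-fold lower in the pTh17 library, taking 3 counts as the floor for that library, and its counting interval starts lower, at 2.32-fold.

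**Figure D1:**
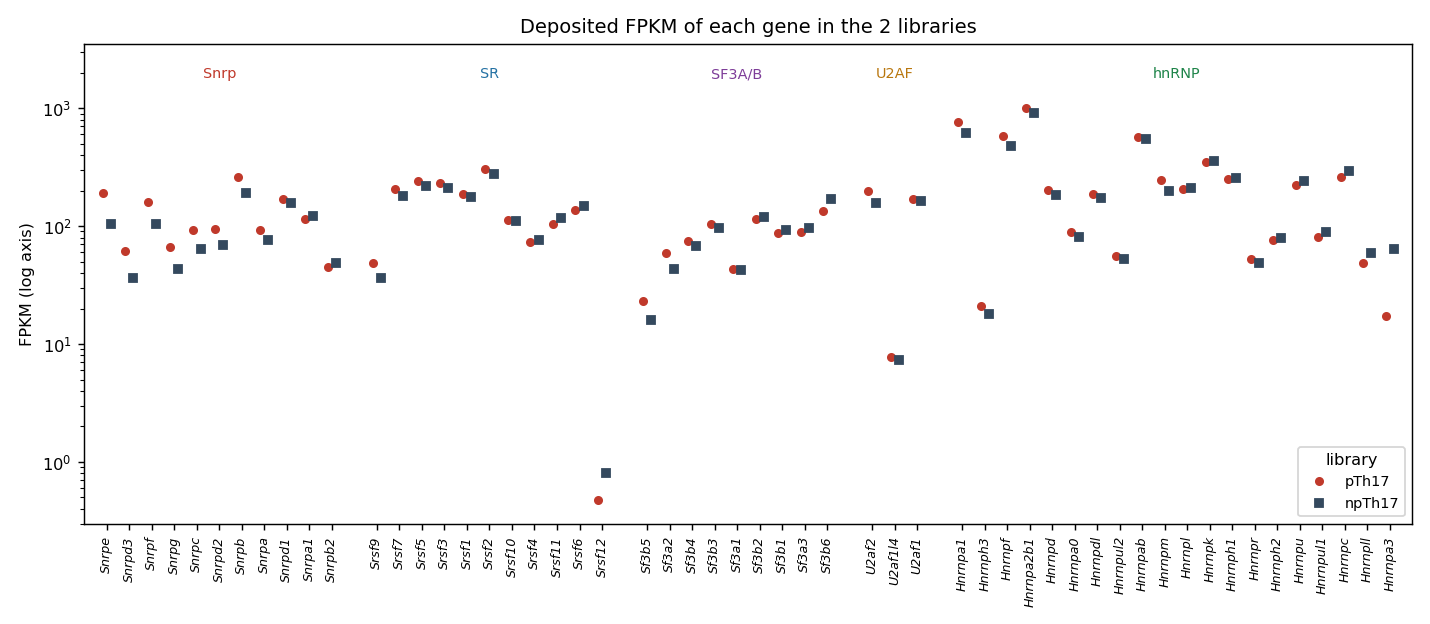
FPKM of each kept gene in the pTh17 library (circle, left) and the npTh17 library (square, right), by family, on a log axis. Most pairs of points nearly touch, while Hnrnpa3 stands at 17.2 FPKM in the pTh17 library and 63.9 FPKM in the npTh17 library.

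Differences between the libraries were small for most of these genes. Of the 54 kept, 35 had a ratio above 1 and 19 below it, where 5240 and 5357 of all 10597 kept genes did. Their median log2 ratio was 0.11, where the median over all kept genes was -0.0045. A ratio of at least 1.3-fold higher in the pTh17 library was reached by 10 of the 54, where 13.8% of all kept genes reached it. A ratio of at least 1.3-fold lower was reached by 1, Hnrnpa3, where 12.0% of all kept genes reached it. None was 2-fold higher, where 2.25% of all genes were, and Hnrnpa3 was also the only one 2-fold lower, where 1.95% of all genes were. The counting interval lay above equal levels for 31 of the 54 and below them for 14, where it did so for 33.0% and 34.0% of all kept genes. The 10 higher genes were unevenly placed among the families: 7 were Snrp genes, 2 were SF3 genes, 1 was an SR gene, and none was a U2AF or hnRNP gene. This placement changed when a joint trend on transcript length and GC content, not separated from each other, was removed. Then 7 of the 54 were at least 1.3-fold higher, where 1267 of all 10597 kept genes were. Of these, 4 were Snrp genes, 1 was an SF3 gene (Sf3b5) and 2 were hnRNP genes (Hnrnpa1 and Hnrnph3). These genes are abundant, and abundant genes spread less: of the 51 that averaged 50 CPM or more, 19.6% were 1.3-fold higher and 1.96% 1.3-fold lower, against 7.0% and 7.32% of the 4426 other genes at that level.

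**Figure D2:**
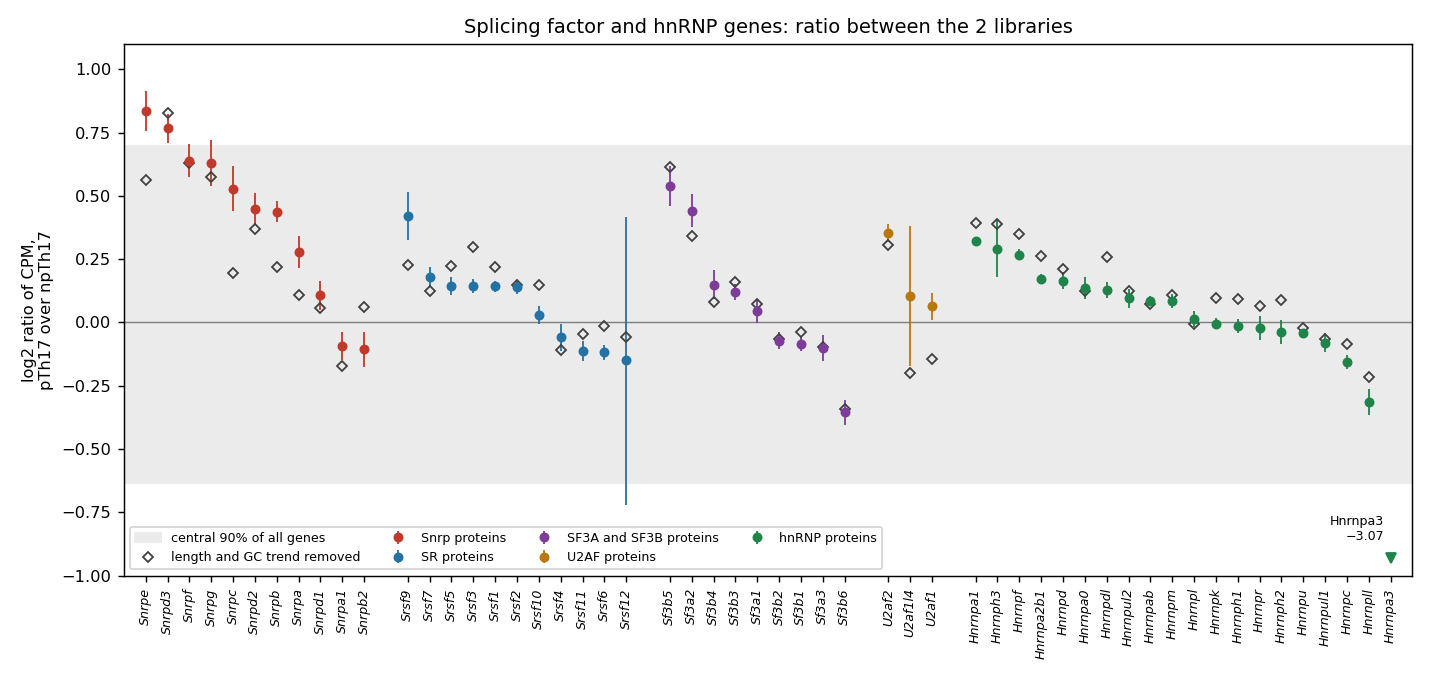
The log2 ratio of CPM, pTh17 over npTh17 library, of every kept gene by family, with 95% counting intervals as bars, open diamonds for the value after the length and GC trend was removed, a line at equal levels and a grey band for the central 90% of all kept genes. Snrpe reaches 0.84 and Snrpd3 0.77, above the band, and Hnrnpa3, drawn as a triangle at the lower edge, lies off the axis at -3.07.

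The Snrp genes, which encode the Sm ring and proteins of the U1 and U2 particles, had the highest median ratio of the families. Of the 11 kept Snrp genes, 9 lay above equal levels, where 5240 of all 10597 kept genes did. Their median log2 ratio was 0.45. By 1.3-fold or more, 7 of them were higher, where 13.8% of all kept genes were. The 7 genes of the Sm ring (Snrpb, Snrpd1, Snrpd2, Snrpd3, Snrpe, Snrpf and Snrpg), a subgroup formed after the values were seen, all lay above equal levels, 6 of them by 1.3-fold or more, with a median of 0.63. With the length and GC trend removed, 4 of the 7 ring genes and 4 of the 11 Snrp genes were at least 1.3-fold higher. In both cases these were Snrpe, Snrpd3, Snrpf and Snrpg. Of all 10597 kept genes, 1267 were higher by that much after the removal. Snrpe, the Sm protein E (ENSMUSG00000090553, chr1:133603871-133610291, GRCm38/mm10), had 3387 counts (110 CPM, 189 FPKM) in the pTh17 library and 2050 counts (61.3 CPM, 104 FPKM) in the npTh17 library. It was 1.79-fold higher in the pTh17 library (1.69 to 1.89). Snrpd3, the Sm protein D3, had 6529 counts (211 CPM, 61.3 FPKM) in pTh17 and 4147 counts (124 CPM, 35.9 FPKM) in npTh17, a 1.70-fold higher level in the pTh17 library (1.64 to 1.77). These are the 2 largest ratios above 1 among all the kept genes of the set.

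Snrpf, the Sm protein F, had 4881 counts in the pTh17 library and 3386 in the npTh17 library, or 161 FPKM in pTh17 and 104 FPKM in npTh17, and was 1.56-fold higher in the pTh17 library (1.49 to 1.63). Snrpg, the Sm protein G, had 2464 counts (66.2 FPKM) in pTh17 and 1721 (42.9 FPKM) in npTh17, and was 1.55-fold higher in the pTh17 library (1.45 to 1.65). In the assembly of the ring, E, F and G join as a preformed trimer, and their 3 genes were 1.55-fold to 1.79-fold higher in the pTh17 library. Snrpd2 was 1.37-fold higher in the pTh17 library (1.31 to 1.43) and Snrpb, the Sm protein B and the most abundant of the ring by FPKM, was 1.35-fold higher (1.32 to 1.39), at 258 FPKM in the pTh17 library and 191 FPKM in the npTh17 library. Snrpd1 was the exception in size, with 5083 counts in the pTh17 library, 5102 in the npTh17 library and a log2 ratio of 0.11 (0.05 to 0.16).

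Proteins specific to U1 and to U2 did not share 1 direction. The U1 proteins C (Snrpc) and A (Snrpa) were higher in the pTh17 library, Snrpc 1.44-fold (1.36 to 1.53) with 2464 counts in the pTh17 library and 1846 in the npTh17 library, and Snrpa 1.21-fold (1.16 to 1.27). The U2 proteins A′ (Snrpa1) and B″ (Snrpb2) were slightly lower. Snrpa1 had 4867 counts in the pTh17 library and 5608 in the npTh17 library, with a log2 ratio of -0.09 (-0.15 to -0.04). Snrpb2 had 3266 counts in pTh17 and 3799 in npTh17, a log2 ratio of -0.11 (-0.17 to -0.04). With the length and GC trend removed Snrpa1 had -0.17, while Snrpb2 changed sign to 0.06.

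Bases before the RefSeq start of the 4 Sm genes with ratios of at least 1.5-fold are shown because these genes stood higher together. They are the 250 bases before the start that RefSeq gives for each gene on GRCm38.p6, 5′ to 3′ on the gene's strand. The gene spans of GENCODE M21 reach further out, so that each window overlaps the GENCODE span of its gene, and that of Snrpd3 lies wholly within it. Capitals mark CCGGAAG, a strict form of the ETS factor site that is longer than its GGAA core, and CCAAT, the CCAAT box, each on either strand. The windows are chr1:133610281-133610530 (minus strand) for Snrpe, chr10:75517792-75518041 (plus strand) for Snrpd3, chr10:93589659-93589908 (minus strand) for Snrpf and chr6:86371290-86371539 (plus strand) for Snrpg.
Snrpe: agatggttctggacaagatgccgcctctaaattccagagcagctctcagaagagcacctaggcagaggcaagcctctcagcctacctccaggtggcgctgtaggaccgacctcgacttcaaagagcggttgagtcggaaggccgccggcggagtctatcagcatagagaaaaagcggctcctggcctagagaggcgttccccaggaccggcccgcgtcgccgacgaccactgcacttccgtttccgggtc
Snrpd3: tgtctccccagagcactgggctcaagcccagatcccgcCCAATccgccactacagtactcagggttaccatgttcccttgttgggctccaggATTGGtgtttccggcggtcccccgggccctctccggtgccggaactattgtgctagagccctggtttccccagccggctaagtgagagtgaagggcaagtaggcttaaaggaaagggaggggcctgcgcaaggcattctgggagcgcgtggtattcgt
Snrpf: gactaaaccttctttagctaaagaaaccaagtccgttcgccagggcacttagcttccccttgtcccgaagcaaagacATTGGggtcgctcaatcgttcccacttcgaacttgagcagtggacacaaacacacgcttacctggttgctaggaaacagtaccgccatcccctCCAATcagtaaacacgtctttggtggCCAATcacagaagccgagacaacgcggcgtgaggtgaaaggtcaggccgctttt
Snrpg: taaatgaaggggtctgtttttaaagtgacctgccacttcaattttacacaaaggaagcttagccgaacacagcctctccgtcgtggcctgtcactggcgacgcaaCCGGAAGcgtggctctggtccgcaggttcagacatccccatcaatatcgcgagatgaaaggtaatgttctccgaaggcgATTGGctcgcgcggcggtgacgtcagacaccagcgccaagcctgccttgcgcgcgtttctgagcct

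No motif searched was common to all 4 windows. CCAAT was in the windows of Snrpd3, Snrpf and Snrpg, and CCGGAAG in that of Snrpg alone. Promoters of 48 of the 55 genes were in the table, 5 of them of the Sm ring. Over those 48, CCGGAAG was in 31.2%, where 17.8% of the 8420 kept genes with a promoter held it, and CCAAT was in 47.9%, where 41.5% did. The GC box GGGCGG was in 70.8% of the set and 65.7% of kept genes, and the E-box CACGTG in 8.33% and 10.4%. All motifs were searched on both strands as exact letters, with no overlap between them considered. Shorter or variant forms of these sites were not searched. A match describes the letters of the window only.

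The Snrp ratios moved in part with transcript length, and short transcripts as a class stood higher in the pTh17 library. Among other kept genes, the 677 with a transcript of at most 1000 bases had a median log2 ratio of 0.29, and the 3212 of over 3000 and up to 5000 bases a median of -0.05. Several Snrp messages are short, 503 bases for Snrpe and 861 bases for Snrpf. After a smooth trend on transcript length and GC content was removed, the Snrp median was 0.22 in place of 0.45, and the Sm ring median 0.56 in place of 0.63. Snrpd3, whose representative transcript has 3036 bases, had a log2 ratio of 0.83 after removal and 0.77 before, and Snrpe had 0.56 after removal and 0.84 before. Snrpc had 0.19 after removal and 0.53 before. What made the ratios move with length was not tested.

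**Figure D3:**
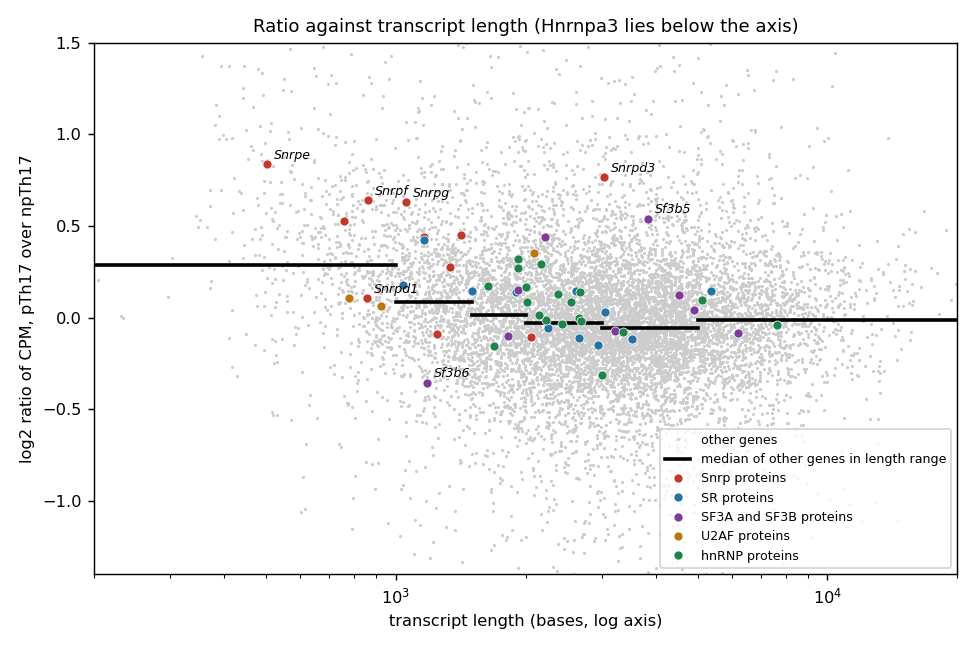
The log2 ratio of CPM, pTh17 over npTh17 library, against transcript length in bases on a log axis, with other kept genes as grey points, their median per length class as bars and the splicing genes as coloured points (Hnrnpa3 and some other genes lie outside the axis). The median lies at 0.29 for transcripts of at most 1000 bases and at -0.05 for those over 3000 and up to 5000 bases, and Snrpd3, Snrpe, Snrpf and Snrpg lie above that of their class.

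The U2AF genes, whose products form the heterodimer that recognises the 3′ end of introns, were near-level except for the large subunit. U2af2, the large subunit that contacts the polypyrimidine tract, had 14720 counts (198 FPKM) in the pTh17 library and 12455 counts (156 FPKM) in the npTh17 library, 1.28-fold higher in the pTh17 library (1.25 to 1.31). U2af1, the small subunit that contacts the AG at the intron end, had 5421 counts (175 CPM, 169 FPKM) in pTh17 and 5608 counts (168 CPM, 163 FPKM) in npTh17, and a log2 ratio of 0.06 (0.01 to 0.12). With the length and GC trend removed, U2af2 had 0.30, while U2af1 changed sign to -0.15 and U2af1l4, given next, to -0.20. U2af1l4, a paralog of the small subunit, had 219 counts in the pTh17 library and 220 in the npTh17 library, with a log2 ratio of 0.10 whose interval, -0.17 to 0.38, spans equal levels. It overlaps the predicted gene Gm49396 on its strand, and summed with it the log2 ratio was -0.13, so its value is uncertain.

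Genes of the SF3A and SF3B complexes, the proteins of the U2 particle that hold the branch point, went both ways with a median log2 ratio of 0.04. Of 9 genes, 5 had a ratio above 1, where 5240 of all 10597 kept genes did. At least 1.3-fold higher were 2 of the 9 and none was 1.3-fold lower, where 13.8% and 12.0% of all kept genes were. Sf3b5, the smallest SF3B subunit, had 3119 counts (23.0 FPKM) in the pTh17 library and 2320 counts (15.9 FPKM) in the npTh17 library, 1.45-fold higher in the pTh17 library (1.38 to 1.53). Sf3a2, an SF3A subunit, had 4561 counts in pTh17 and 3628 in npTh17, 1.36-fold higher in the pTh17 library (1.3 to 1.42). Sf3b6, the subunit that touches the branch point adenosine, was the lowest, with 5554 counts (133 FPKM) in the pTh17 library and 7676 counts (171 FPKM) in the npTh17 library. It was 1.28-fold lower in the pTh17 library (1.24 to 1.32).

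Subunits of the same complex thus differed from each other by more than their counting intervals. Sf3b1, the scaffold of SF3B and the subunit most often mutated in human blood cancers, had 18826 counts in the pTh17 library and 21564 in the npTh17 library, with a log2 ratio of -0.08 (-0.11 to -0.06). Sf3a3 had 5704 counts in pTh17 and 6606 in npTh17, a log2 ratio of -0.10 (-0.15 to -0.05). With the length and GC trend removed, Sf3b1 had -0.04 and Sf3a3 -0.10. The remaining SF3 genes, Sf3a1, Sf3b2, Sf3b3 and Sf3b4, lay between -0.07 and 0.15.

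The SR genes showed a narrow spread, with a median log2 ratio of 0.14. Of all kept genes 13.8% were at least 1.3-fold higher and 12.0% lower, and of the 11 SR genes 1 was higher. That gene was Srsf9, with 1993 counts (48.4 FPKM) in the pTh17 library and 1609 counts (36.3 FPKM) in the npTh17 library, 1.34-fold higher in the pTh17 library (1.25 to 1.43). Its log2 ratio was 0.42, and 0.23 after the length and GC trend was removed. Srsf1, Srsf2 and Srsf3 lay close together. Srsf1, the founding SR protein, had 32755 counts (186 FPKM) in the pTh17 library and 32055 counts (175 FPKM) in the npTh17 library, a log2 ratio of 0.14 (0.12 to 0.17). Srsf2 had 20152 counts in pTh17 and 19752 in npTh17, a log2 ratio of 0.14 (0.11 to 0.17), and Srsf3, the smallest of the family, had 21104 counts in pTh17 and 20652 in npTh17, a log2 ratio of 0.14 (0.12 to 0.17). The ratios of these 3 genes had overlapping intervals, all a little above equal levels. With the length and GC trend removed, the log2 ratios were 0.22 for Srsf1, 0.15 for Srsf2 and 0.30 for Srsf3.

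Srsf7, close in sequence to Srsf3, had 11872 counts in the pTh17 library and 11326 in the npTh17 library, with a log2 ratio of 0.18 (0.14 to 0.22), and Srsf5 had 12690 counts in pTh17 and 12399 in npTh17, with 0.15 (0.11 to 0.18). At a mean of at least 5 CPM, the lowest were Srsf6, with 15418 counts in pTh17 and 18086 in npTh17 and a log2 ratio of -0.12 (-0.15 to -0.09), Srsf11, with 9701 counts in pTh17 and 11345 in npTh17 and -0.11 (-0.15 to -0.07), and Srsf4, with 5412 counts in pTh17 and 6094 in npTh17 and -0.06 (-0.11 to -0.01). Srsf4, Srsf5 and Srsf6 are close relatives with paired RNA-binding domains, and 2 of the 3 were lower while Srsf5 was higher. With the length and GC trend removed, the log2 ratios were -0.01 for Srsf6, -0.04 for Srsf11, -0.11 for Srsf4 and 0.22 for Srsf5. Srsf10 was near level at 0.03. Srsf12 was barely detected, with 50 counts in the pTh17 library and 60 in the npTh17 library, and its log2 ratio of -0.15 (-0.72 to 0.41) could not be told from 0 at this depth. Its FPKM were 0.476 in pTh17 and 0.807 in npTh17, a log2 ratio of -0.66 with 0.1 added to each, and it was 1 of the 2 genes of the set, with Hnrnpa3, whose FPKM and count ratios lay more than 0.5 apart on the log2 scale, where 1.1% of all kept genes did.

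The hnRNP genes, apart from Hnrnpa3, lay within 1.3-fold in both directions, where 13.8% of all kept genes were higher and 12.0% lower by that much. Of 20 genes, 11 had a ratio above 1 and 9 below it, where 5240 and 5357 of all 10597 kept genes did. The hnRNP median log2 ratio was 0.05. Hnrnpa1 had 57038 counts in the pTh17 library and 49375 in the npTh17 library, 1.25-fold higher in the pTh17 library (1.23 to 1.26). Hnrnph3, a member of the hnRNP H and F group that binds G-rich tracts, had 1375 counts in pTh17 and 1214 in npTh17, 1.22-fold higher (1.13 to 1.32). Hnrnpf, of the same group, had 40788 counts in pTh17 and 36598 in npTh17, 1.20-fold higher (1.19 to 1.22). Others of that group did not go with them, since Hnrnph1 and Hnrnph2 had log2 ratios of -0.01 and -0.04.

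Several other abundant hnRNPs lay nearer to level. Hnrnpa2b1 had 58543 counts in the pTh17 library and 56095 in the npTh17 library, a log2 ratio of 0.17 (0.16 to 0.19). Hnrnpu, a nuclear scaffold protein, had 57653 counts in pTh17 and 64091 in npTh17, a log2 ratio of -0.04 (-0.06 to -0.02). Hnrnpk, which binds C-rich tracts, had 32923 counts in pTh17 and 35707 in npTh17, and its log2 ratio interval of -0.03 to 0.02 spans equal levels, with 0.10 after the trend was removed. Hnrnpc, the core hnRNP that binds U-rich tracts, had 18543 counts (262 FPKM) in the pTh17 library and 22349 counts (296 FPKM) in the npTh17 library, 1.12-fold lower in the pTh17 library (1.09 to 1.14). Its log2 ratio was -0.16, and -0.08 after the trend was removed.

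Hnrnpll, the regulator of CD45 splicing in T cells, was the lowest hnRNP gene after Hnrnpa3. It had 5036 counts (48.2 FPKM) in the pTh17 library and 6765 counts (59.6 FPKM) in the npTh17 library, 1.24-fold lower in the pTh17 library (1.20 to 1.29). Hnrnpll had a log2 ratio of -0.31, and -0.22 after the length and GC trend was removed. Its paralog Hnrnpl was level, with 15918 counts in pTh17 and 17052 in npTh17 and a log2 ratio of 0.01 (-0.02 to 0.04). Hnrnpm had a log2 ratio of 0.09 from counts and 0.31 from FPKM, and it overlaps March2 on its strand, though the summed counts gave 0.07. The remaining 7 hnRNP genes, Hnrnpa0, Hnrnpab, Hnrnpd, Hnrnpdl, Hnrnpr, Hnrnpul1 and Hnrnpul2, lay between -0.08 and 0.16.

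Hnrnpa3, a close relative of Hnrnpa1 and Hnrnpa2b1 at chr2:75659261-75669407 on the plus strand (ENSMUSG00000059005, GRCm38/mm10, GENCODE M21), had by far the largest difference among the kept genes of the set. It had 1002 counts (32.4 CPM, 17.2 FPKM) in the pTh17 library and 9123 counts (273 CPM, 63.9 FPKM) in the npTh17 library. By counts it was 8.42-fold lower in the pTh17 library (7.89 to 9.0), a log2 ratio of -3.07, while by FPKM the log2 ratio was -1.89. The FPKM and counts together imply a transcript length of 1891 bases in the pTh17 library and 4264 bases in the npTh17 library. Over 671 genes with 1 transcript, the same calculation gave 1.14 times the GENCODE length. The protein-coding isoforms of Hnrnpa3 in GENCODE M21 have 5150, 1734, 1654, 1140, 1074 and 754 bases. The implied length in the pTh17 library over that in the npTh17 library was 0.444 for Hnrnpa3, 0.857 for Hnrnpm, 0.90 for Hnrnpr and 1.53 for Srsf12, and between 0.979 and 1.05 for the other kept genes of the set.

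A near-identical copy bears on this value. Gm6793, at chr8:112013433-112015036 on the minus strand, has 1 exon and aligns to the Hnrnpa3 message over 1476 bases at 98.3% identity, which takes in its coding part. Of 1053 aligned coding bases, 6 differ. The stretch of 120 coding bases with the most differences, 3, is shown to let the likeness be seen, with the differing bases in capitals. It runs over chr2:75661730-75661927 (exons 3 to 4 of 11, with the intron left out) for Hnrnpa3 and chr8:112014701-112014820 for Gm6793, 5′ to 3′ on the strand of each gene, from GENCODE M21 transcripts.
Hnrnpa3: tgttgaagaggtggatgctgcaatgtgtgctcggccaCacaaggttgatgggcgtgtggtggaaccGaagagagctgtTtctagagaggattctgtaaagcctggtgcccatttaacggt
Gm6793: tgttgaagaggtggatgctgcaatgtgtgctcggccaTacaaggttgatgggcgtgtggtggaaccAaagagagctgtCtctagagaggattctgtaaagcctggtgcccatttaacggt

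Reads from such a stretch can be placed on either gene, so the counts of both are uncertain. Gm6793 had 14173 counts (458 CPM, 250 FPKM) in the pTh17 library and 11052 counts (331 CPM, 181 FPKM) in the npTh17 library, 1.39-fold higher in the pTh17 library (1.35 to 1.42). Of the counts of the pair, Hnrnpa3 held 6.60% in the pTh17 library and 45.2% in the npTh17 library. Summed, the pair had 15175 counts in the pTh17 library and 20175 in the npTh17 library, 1.23-fold lower in the pTh17 library (1.20 to 1.26), a log2 ratio of -0.30. Summed FPKM, 268 in the pTh17 library and 245 in the npTh17 library, gave a log2 ratio of 0.13, with the opposite sign. The sum takes away most of the difference, and its direction depends on the unit. What divides the counts between the pair was not tested. The longest Hnrnpa3 transcript has 3651 bases after the aligned part, which Gm6793 lacks.

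**Figure D4:**
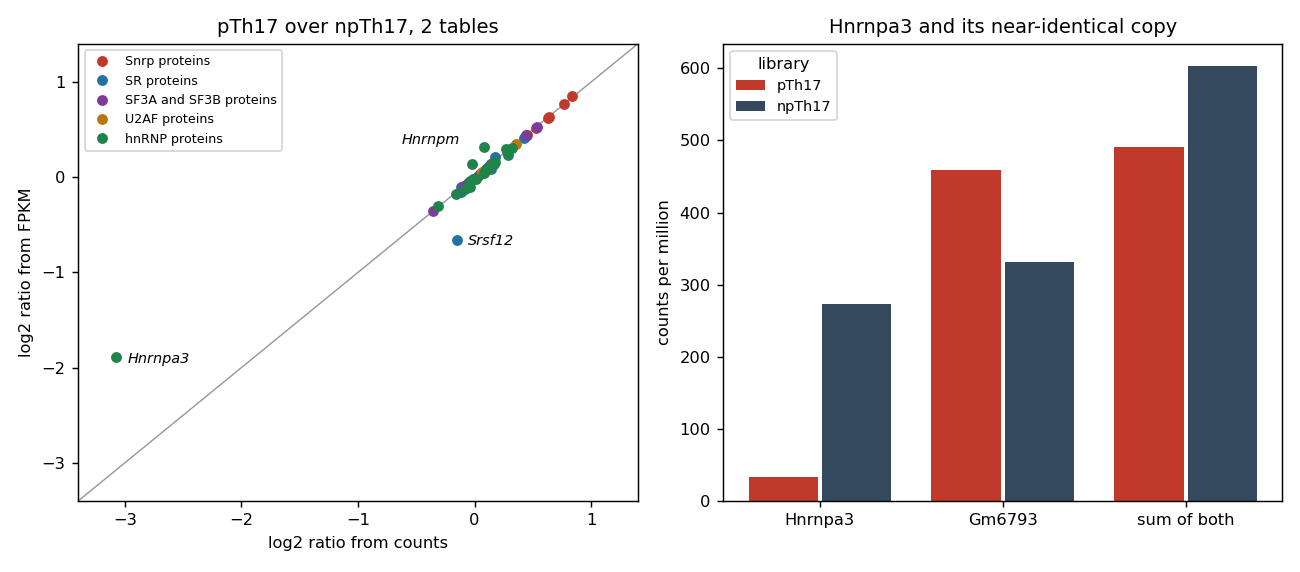
Left, the log2 ratio from FPKM against that from counts, pTh17 over npTh17 library, for each kept gene, with the diagonal marking equal values; right, CPM of Hnrnpa3, of Gm6793 and of their sum in the pTh17 library (left bar) and the npTh17 library (right bar). Hnrnpa3 lies at -3.07 by counts and -1.89 by FPKM, and the sums are 491 CPM in the pTh17 library and 604 CPM in the npTh17 library.

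Near-identical copies were searched for the genes of this set only, so no share over all genes can be set beside their number. In GENCODE M21, 25 of the 55 genes have at least 1 other gene with 95% identity over 200 bases or more. Most of these other genes are processed pseudogenes, and Hnrnpa3 has 35. For Hnrnpm, U2af1l4 and Hnrnpul2 the only such gene overlaps them at their own locus, so it is not a separate copy. For 6 of the 25 such a gene has a row in the tables. For Hnrnpm (March2), U2af1l4 (Gm49396) and Snrpn (Gm38393 and Snurf) it overlaps the gene on its strand. Hnrnpa3, Snrpg and Srsf3 have a separate copy with a row. For Snrpg it is Gm8186, with 224 counts in the pTh17 library and 241 in the npTh17 library, and the summed log2 ratio was 0.57 where Snrpg alone had 0.63. For Srsf3 the sum with its copy gave 0.14, the value of Srsf3 alone.

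Other splicing genes were read from lists of fixed membership. Among 49 other core spliceosome genes the median log2 ratio was 0.04. At least 1.3-fold higher in the pTh17 library were 7, a share near the 13.8% of all kept genes. None was 1.3-fold lower, where 12.0% of all kept genes were. With the length and GC trend removed, 5 were higher and 1 was lower, where 1267 and 1251 of all 10597 kept genes were. The largest was Snrnp35, a protein of the U11 and U12 particles that act on minor introns, with 452 counts in the pTh17 library and 247 in the npTh17 library, 1.97-fold higher in the pTh17 library (1.69 to 2.32). Lsm7 and Lsm8, proteins of the Sm-like ring on U6, followed. Lsm7 had 1999 counts in pTh17 and 1147 in npTh17, 1.88-fold higher (1.75 to 2.03), and Lsm8 had 2481 counts in pTh17 and 1523 in npTh17, 1.76-fold higher (1.65 to 1.88). After the length and GC trend was removed, the log2 ratio of Lsm7 was 0.32 in place of 0.91 and that of Lsm8 0.75 in place of 0.82.

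Genes for the assembly of the Sm ring lay closer to level than the genes of the ring. Of 14 kept genes, 8 had a ratio above 1, where 5240 of all 10597 kept genes did. The median log2 ratio of the 14 was 0.08. None reached 1.3-fold in either direction, where 13.8% of all kept genes were higher and 12.0% lower by that much. The largest were the SMN complex genes Gemin7, with 795 counts in the pTh17 library and 699 in the npTh17 library and a log2 ratio of 0.30, Gemin5, with 0.26, and Gemin4, with 0.24. After the trend was removed Gemin7 had -0.06.

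Of the kinases that phosphorylate SR proteins, 7 of 8 kept genes lay below a ratio of 1, where 5357 of all 10597 kept genes did. The kinases had a median log2 ratio of -0.11. None was past 1.3-fold, where 13.8% of all kept genes were higher and 12.0% lower by that much. Clk4 had 1445 counts in the pTh17 library and 2000 in the npTh17 library, 1.28-fold lower in the pTh17 library (1.20 to 1.37). Clk1 had 3592 counts in pTh17 and 4378 in npTh17, 1.13-fold lower (1.08 to 1.18), and Srpk2 had a log2 ratio of -0.13. Genes of nonsense-mediated decay, which degrades messages with early stop codons and through which SR and hnRNP genes limit their own messages, had a median of -0.04. None of these 10 genes was past 1.3-fold, against the same shares of all kept genes. The largest were Smg1 at 0.26, Upf2 at -0.16 and Smg8 at 0.14.

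Other splicing regulators had a median log2 ratio of -0.08. Of 31 kept genes, 4 were at least 1.3-fold higher, a share near the 13.8% of all kept genes. At least 1.3-fold lower was 1, where 12.0% of all kept genes were. With the length and GC trend removed, 5 were higher and 1 was lower, where 1267 and 1251 of all 10597 kept genes were. Mbnl2, a muscleblind protein, had 1118 counts in the pTh17 library and 2730 in the npTh17 library, 2.26-fold lower in the pTh17 library (2.11 to 2.42). Raver1, a corepressor of Ptbp1, had 5081 counts in pTh17 and 1046 in npTh17, 5.25-fold higher (4.91 to 5.62), but it overlaps the predicted gene Gm38431 on its strand. Summed with that gene the log2 ratio was 0.16, so the counts of Raver1 are uncertain.

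Markers fixed for other cell types were low in both libraries. CD4 T cell markers summed to 1223 CPM in the pTh17 library and 1282 CPM in the npTh17 library. Those of B cells summed to 0.81 CPM in pTh17 and 0.18 CPM in npTh17, and those of CD8 T cells to 1.91 CPM in pTh17 and 1.89 CPM in npTh17. Myeloid markers summed to 3.78 CPM in pTh17 and 5.18 CPM in npTh17, NK markers to 1.52 CPM in pTh17 and 2.93 CPM in npTh17, and erythroid markers to 1.75 CPM in pTh17 and 2.33 CPM in npTh17. Their part in the ratios was not tested. Of the fixed markers, Csf1r, Ncr1 and Klrb1c were at 0 in both libraries. The NK counts, 47 in pTh17 and 98 in npTh17, were thus all of Klrd1. The myeloid counts, 117 in pTh17 and 173 in npTh17, came from the listed markers other than Csf1r.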

How the data were processed

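Both libraries are poly(A) mRNA sequencing of mouse CD4 T cells, 1 per condition. The authors deposited whole-number counts per gene and FPKM values for the same rows, per the file headers. The submitters' processing notes name mm10 as the build; aligner, counting program, annotation and use of strand are not given in these sources. Of 23682 rows with values, 1646 had no gene name; left out, they held 2.50% of pTh17 counts and 2.90% of npTh17 counts. Of 22036 Ensembl identifiers, 22022 were found in GENCODE M21. Symbols turned into dates were restored in 27 rows. Positions are counted from base 1.

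Ratios are log2 of CPM with TMM scaling (edgeR 4.0.16, R 4.3.3; both factors 1.00) and a prior count of 1, with exact Clopper-Pearson 95% intervals on counts, calculated in Python 3.11.15 with scipy 1.17.1. FPKM ratios add 0.1 to each value. Genes averaging 1 CPM or more were kept, and 1.3-fold and 2-fold served as limits of size. With 1 library per condition there is no test between conditions. PCR reads are not independent molecules where no molecular identifiers were used, and genes with 2 counts were 3.42 times as frequent as genes with 1 count in pTh17 and 4.37 times in npTh17, so intervals can be too narrow. Near-identical copies were found with BLAST 2.17.0 at 95% identity over 200 bases. Genes that overlap at the same locus were not excluded from that search. The length trend is a smooth fit on log2 transcript length and GC content over the kept genes. It was fitted in 3 rounds, each leaving out genes more than 1 log2 unit from the fit before. The transcript used for a gene, protein-coding where it had any, was that nearest the length its FPKM and counts imply. The calculations were tested on simulated data that held counting error alone. That test does not bear on spread between cultures, the length trend or reads shared between copies.

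Genes given in full were the 3 highest and 3 lowest SR and hnRNP genes and the 2 highest and 2 lowest Snrp and SF3 genes at a mean of at least 5 CPM, every U2AF gene, every gene at least 1.5-fold apart, every gene whose count and FPKM log2 ratios differ by more than 0.5, 12 genes whatever their value, and up to 3 of each other list. Others are named to account for every member. List counts, sums and medians include genes that are not reported here. The members and lists were chosen with earlier results of these data known. Alternatives were DESeq2 1.42.0 size factors, unscaled totals, other prior counts, filters and pseudocounts, FPKM in place of counts, removal of the length trend, and sums over overlapping or near-identical genes.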

Additional observations from a re-analysis of the deposited data

How the results depend on the processing

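Each ratio rests on 1 library per condition, so its precision over cultures is unknown. No paired analysis was possible because each condition has 1 library, and none could be left out in turn. Summing near-identical copies was an alternative chosen after the data were seen. Of the recalculated counts and medians, 120 stayed within the limits set for them and 13 did not. The genes at least 1.3-fold lower, 1 by counts, were 2 by FPKM with 0.1 added, 2 without the filter on low values and 0 with near-identical copies summed. Those at least 2-fold lower, also 1, were 2 without the filter and 0 with the copies summed. The SR median of 0.14 was 0.084 by FPKM, both with 0.1 and with 1 added. With the length and GC trend removed, the median of the Snrp genes was 0.22, of the U2AF genes -0.15, of the hnRNP genes 0.10 and of other splicing regulators 0.0040. Genes with FPKM and count ratios over 0.5 apart, 2 with 0.1 added, were 1 with 1 added and 1 at a mean of at least 5 CPM, where Srsf12 is not tested. Of the single-gene values recalculated, 230 stayed within the limits and 34 did not. Most of the moves came with the length and GC trend removed, where 24 of 33 genes moved and 9 stayed. The extra gene without the filter is Snrpn, and that by FPKM is Srsf12; the cause of the other differences was not tested. Scaling by DESeq2 size factors or by unscaled totals moved none of the family medians by over 0.1; the other splicing lists were not recalculated with unscaled totals. Depth limits Srsf12, U2af1l4 and Snrpn most.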
